A study of Mus musculus with 9 samples.

Results

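The Ighv genes are the variable segments of the immunoglobulin heavy chain. Members were the genes of the deposited table annotated as functional immunoglobulin variable genes whose names begin with Ighv and whose expression was above 0 in at least 3 of the 9 libraries. Of 113 such genes among 54532 in the table, 90 were members, and they came from 14 of the 16 annotated Ighv families, which are numbered groups of related segments. Expression was given in FPKM, fragments scaled to the length of the gene and to a size of the library, which here differed from its assigned reads.

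The libraries were made from mouse duodenum, by directional sequencing after removal of ribosomal RNA, with 3 libraries in each of 3 groups. The CeD+GR group modelled celiac disease as a delayed-type hypersensitivity, received composite nanoparticles of gliadin and rapamycin beforehand, and had enhanced gluten stimulation. CeD mice were the same model with enhanced gluten stimulation and no nanoparticles named in their label. Control mice were wild type, with gluten stimulation that was not enhanced. All 3 groups thus met gluten, and strain, age and the number of animals were not given in the labels. The design text set the duodenum of nanoparticle-treated mice beside that of CeD and control mice to evaluate intestinal inflammation. Whether the libraries of a group stem from separate animals is not stated, so that p-values measure only how these samples vary, and this may be technical.

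Each B cell joins 1 variable segment to a diversity and a joining segment when it forms its heavy chain gene, so a transcript names the segment that its clone chose. Plasma cells secrete the antibody that results, and those of the gut mucosa mostly make IgA, whose heavy chain constant region is encoded by Igha. Ighv RNA in whole gut tissue therefore comes chiefly from plasma cells and carries the segment choice of their clones, and somatic mutation can make it differ from the germline sequence.

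All 90 members lie on the minus strand of chromosome 12 (mm10, 113578504 to 116000461) and are annotated with lengths of 347 to 480 bases, with a median of 354.5. Germline sequences of all 90 were taken from the GENCODE M21 transcripts, whose build GRCm38 is the same assembly as mm10. Between members of a family, the last 294 bases were 85.7% identical in the median over 1085 pairs (range 59.5 to 99.3%). Between families the median was 58.9% over 2920 pairs (range 44.2 to 83.4%). The most abundant member, Ighv1-26 (114788372 to 114788805), is shown here beside 2 abundant members of its family, Ighv1-53 (115158403 to 115158835) and Ighv1-18 (114682632 to 114683065), to show how far such segments differ. Each sequence is read 5′ to 3′ on the coding strand, and capitals mark the bases at which Ighv1-53 and Ighv1-18 differ from Ighv1-26.
Ighv1-26: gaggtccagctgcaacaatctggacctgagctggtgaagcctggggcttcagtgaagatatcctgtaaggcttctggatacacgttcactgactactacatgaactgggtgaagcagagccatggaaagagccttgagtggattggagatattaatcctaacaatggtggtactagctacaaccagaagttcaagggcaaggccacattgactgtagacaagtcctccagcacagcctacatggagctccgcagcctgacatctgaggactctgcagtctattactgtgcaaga
Ighv1-53: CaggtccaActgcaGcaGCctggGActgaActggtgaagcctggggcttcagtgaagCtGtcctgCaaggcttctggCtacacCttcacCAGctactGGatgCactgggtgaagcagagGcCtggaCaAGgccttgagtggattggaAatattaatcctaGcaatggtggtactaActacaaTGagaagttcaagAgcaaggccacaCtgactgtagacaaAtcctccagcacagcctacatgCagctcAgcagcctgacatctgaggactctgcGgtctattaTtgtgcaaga
Ighv1-18: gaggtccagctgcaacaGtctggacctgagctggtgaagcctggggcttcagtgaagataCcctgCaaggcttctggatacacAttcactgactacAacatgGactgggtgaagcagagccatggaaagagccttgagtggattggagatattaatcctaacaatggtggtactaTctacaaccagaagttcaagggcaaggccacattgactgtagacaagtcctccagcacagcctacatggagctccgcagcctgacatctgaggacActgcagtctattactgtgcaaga
Ighv1-53 differed from Ighv1-26 at 36 of the 294 bases (87.8% identity), and Ighv1-18 at 8 (97.3% identity). Of the stretches of 100 bases in Ighv1-26, 92.1% occur in no other annotated Ighv gene.

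A more closely related pair, Ighv1-72 (115757984 to 115758461) and Ighv1-62-3 (115460999 to 115461485), is shown because their levels were far apart although their sequences are nearly the same. Capitals mark the bases of Ighv1-62-3 that differ from Ighv1-72.
Ighv1-72: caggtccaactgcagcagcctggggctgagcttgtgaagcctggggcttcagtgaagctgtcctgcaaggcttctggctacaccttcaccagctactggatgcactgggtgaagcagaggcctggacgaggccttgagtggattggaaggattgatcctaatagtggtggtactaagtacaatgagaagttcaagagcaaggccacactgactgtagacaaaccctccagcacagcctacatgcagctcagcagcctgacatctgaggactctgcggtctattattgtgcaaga
Ighv1-62-3: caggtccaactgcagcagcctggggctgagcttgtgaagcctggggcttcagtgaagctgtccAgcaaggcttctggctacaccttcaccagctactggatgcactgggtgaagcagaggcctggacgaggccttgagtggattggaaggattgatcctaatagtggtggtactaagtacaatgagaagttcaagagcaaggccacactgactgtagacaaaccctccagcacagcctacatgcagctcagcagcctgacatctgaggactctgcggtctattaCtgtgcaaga
The pair differed at 2 of 294 bases (99.3% identity), T64A and T285C, with the base of Ighv1-72 first and positions counted from 1 at the first base shown. Ighv1-72 averaged 11.4 FPKM over the 9 libraries and Ighv1-62-3 averaged 0.128 FPKM. How the counting treated reads that fit both genes is not given in the sources used here.

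The families also differ at the end where the variable segment joins the rest of the gene. The last 60 bases of the most abundant members of 6 other families are shown for that reason, with capitals on the codon of the conserved cysteine that closes the segment.
Ighv9-3: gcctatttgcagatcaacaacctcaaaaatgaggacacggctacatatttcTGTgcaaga
Ighv3-6: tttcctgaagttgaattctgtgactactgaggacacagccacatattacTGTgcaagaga
Ighv8-12: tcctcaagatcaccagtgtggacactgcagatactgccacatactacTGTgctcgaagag
Ighv5-17: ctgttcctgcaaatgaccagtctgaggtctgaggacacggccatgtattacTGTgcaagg
Ighv14-2: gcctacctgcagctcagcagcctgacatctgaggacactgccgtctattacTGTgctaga
Ighv2-9-1: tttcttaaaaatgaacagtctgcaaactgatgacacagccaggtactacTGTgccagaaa
The search used the letters TANTNCTGT, where N is any base, and 82 of the 90 members held that pattern in their last 60 bases. The pattern asks for a C just before TGT. Family 1 sequences shown above that end in tattattgtgcaaga have a T there, so they carry the TGT codon and lack the pattern. The count is therefore of members with the pattern, and a member without it can still have the cysteine codon.

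The tissue was checked first. A list of 10 duodenal enterocyte genes summed to between 8622 and 32099 FPKM per library, and Pdx1, which marks the proximal duodenum, was low in CeD+GR 1 and CeD+GR 2 (1.59 and 0.118 FPKM) and stood between 6.64 and 46.0 FPKM in the others. CeD+GR 3 held gastric mucous transcripts (121291 FPKM summed over 4 genes, against 46.6 FPKM or less elsewhere) and CeD 1 held pancreatic ones (2904 FPKM summed over 5 genes, against 39.0 FPKM or less). The reads assigned to genes numbered 15373260 to 16852104 per library, and the members took 0.00304 to 0.0809% of them. Plasma cell transcripts were present in every library, with Jchain, which links the subunits of IgA, at 197 to 691 FPKM and Igha at 955 to 3068 FPKM. The recombination genes Rag1, Rag2 and Dntt summed to at most 0.276 FPKM.

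The summed level of the Ighv genes differed far more with the replicate number of the library than with the group. It was 1932, 82.4 and 305 FPKM in CeD+GR 1 to 3, against 1896, 187 and 81.9 FPKM in CeD 1 to 3 and 1893, 187 and 267 FPKM in control 1 to 3. In each group the replicate 1 library stood far above the other 2, the 3 replicate 1 libraries lay within 1893 to 1932 FPKM, and the ranges of the groups overlapped. The group means were 773 ± 1010 FPKM in CeD+GR, 722 ± 1018 FPKM in CeD and 782 ± 963 FPKM in control (SD, n = 3 each), so that each SD exceeded its mean. Of the mean sums, the log2 ratio was 0.10 for CeD+GR to CeD, -0.12 for CeD to control and -0.02 for CeD+GR to control. Among replicates 2 and 3 alone the sums also overlapped, at 82.4 and 305 FPKM in CeD+GR, 187 and 81.9 FPKM in CeD, and 187 and 267 FPKM in control. In whole tissue, the sum alone does not tell fewer plasma cells from less antibody RNA per cell, and what set it was not tested. Igha differed less than the Ighv sum between replicate 1 and the other libraries, as given below.

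**Figure D1:**
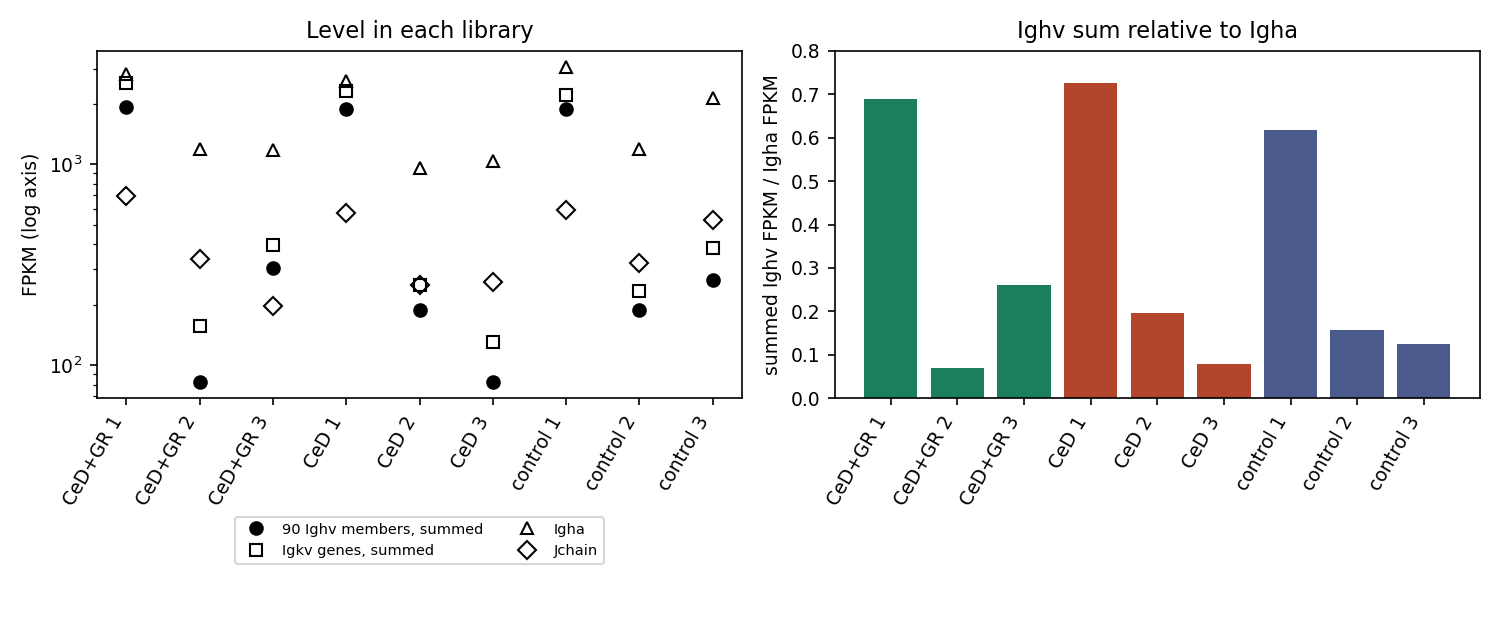
The left panel plots FPKM on a log axis in each of the 9 libraries, for the 90 Ighv members summed, the Igkv genes summed, Igha and Jchain. The right panel shows the Ighv sum divided by Igha, with bars coloured by group. The 3 replicate 1 libraries reach ratios of 0.617 to 0.726, and the other 6 lie between 0.0692 and 0.260.

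The plot of levels shows that the variable genes stood further apart between libraries than the constant genes of the same antibodies. The Ighv sum of replicate 1 was 9.98 times the mean of replicates 2 and 3 in CeD+GR, 14.1 times in CeD and 8.35 times in control. For the sum of 100 Igkv genes, the variable segments of the kappa light chain, it was 9.24 times in CeD+GR, 12.2 times in CeD and 7.23 times in control. Igha in replicate 1 was 2.37 times the mean of the other 2 in CeD+GR, 2.61 times in CeD and 1.85 times in control. For Jchain it was 2.59 times in CeD+GR, 2.24 times in CeD and 1.40 times in control, and for Mzb1, a chaperone of antibody secretion, 2.02 times in CeD+GR, 1.48 times in CeD and 1.06 times in control. Igha, Jchain and Mzb1 thus stood less far above the other libraries than the variable segments did. Other plasma cell genes varied widely, with Pou2af1 at 3.72 times in CeD+GR, 5.16 times in CeD and 3.12 times in control. Xbp1 stood at 0.794, 0.993 and 1.14 times in that order of groups, and Txndc5 at 0.519, 1.67 and 1.98 times. The CeD+GR ratios of both rest on CeD+GR 3, the library with gastric mucous transcripts. Xbp1 was 102, 54.6 and 202 FPKM in CeD+GR 1 to 3, and Txndc5 46.3, 24.8 and 154 FPKM. The ratio of the Ighv sum to Igha was 0.690, 0.0692 and 0.260 in CeD+GR 1 to 3, against 0.726, 0.196 and 0.0784 in CeD 1 to 3 and 0.617, 0.157 and 0.125 in control 1 to 3. Kappa light chains showed the same split, with Igkv over Igkc at 0.343 to 0.387 in the replicate 1 libraries and 0.0654 to 0.147 in the others. For the lambda light chain, the variable segments (Iglv) over Iglc1 to Iglc3 stood at 0.751 to 0.890 in replicate 1 and 0.190 to 0.495 in the others. The Iglv sum in replicate 1 was 3.77 times the mean of the other 2 in CeD+GR, 3.11 times in CeD and 7.70 times in control. Ighv and Igkv kept close to one another, at a ratio of 0.528 to 0.850 over the 9 libraries.

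The higher level in the replicate 1 libraries ran through nearly every member. Of 90 members, 89 had their highest level in a replicate 1 library, 30 in CeD+GR 1, 29 in CeD 1 and 30 in control 1, and the remaining member was highest in control 2. The share over all genes was not computed for this count. The 3 replicate 1 libraries alone could also meet the rule for members, so this count describes them and is no test. Of the 81 members with a mean of at least 0.5 FPKM, 62 (76.5%) had all 3 replicate 1 libraries above the other 6, against 9.06% of the 14683 genes with such a mean. A member could reach that mean through the replicate 1 libraries alone, so the 81 are not all members. Of the 22 members detected in every library, 19 showed the same order. The log2 ratio of the mean of replicate 1 to the mean of the other 6 libraries, on FPKM + 0.5, had a median of 2.89 over the 81 members (range 1.33 to 4.88) and of -0.06 over all genes tested. The split was found in these data, so these values describe it and carry no test.

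**Figure D2:**
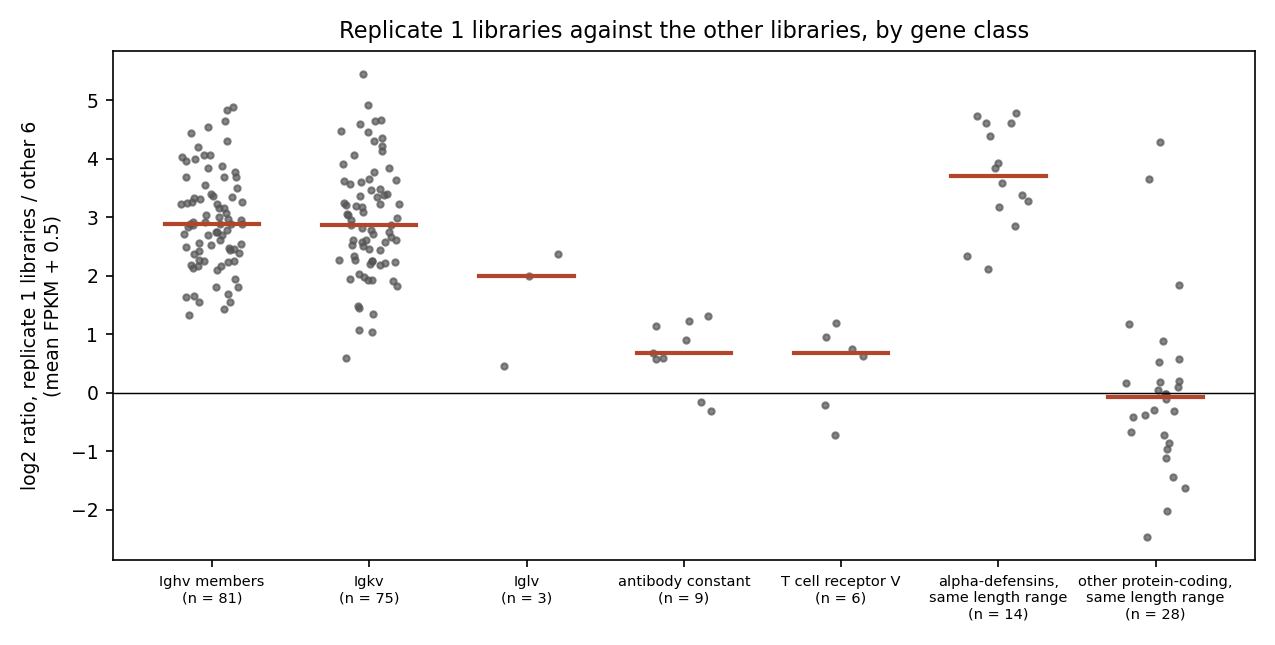
Each point is a gene with a mean of at least 0.5 FPKM, and its height is the log2 ratio of the mean of the 3 replicate 1 libraries to that of the other 6, on FPKM + 0.5. Red lines are medians. Ighv members (median 2.89) and Igkv genes (2.87) lie well above the line at 0, like the alpha-defensins (3.71), while other protein-coding genes of the members' length range lie around it (-0.07).

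The plot by gene class places the heavy chain segments beside other short genes. Of 75 Igkv genes, 59 had all replicate 1 libraries above the others, as did 3 of 28 protein-coding genes of the same length range once alpha-defensins were set apart. Of 6 variable genes of T cell receptors, 0 did. All 14 alpha-defensins of that length range did, and these are products of Paneth cells, the granule cells at the base of intestinal crypts. A list of 4 Paneth cell markers summed to 922 to 1852 FPKM in the replicate 1 libraries and to 45.7 to 129 FPKM in the others, and its part in the Ighv result was not tested. Mitochondrial transcripts took 4.15 to 5.45% of the reads in the replicate 1 libraries and 5.67 to 10.2% in the others. The deposited table also lists the replicate 1 columns after the other 6, which is a fact of its header and gives no date or batch.

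Most of the Ighv RNA came from a minority of members. The 10 most abundant held 42.5% of the total over the 9 libraries, and 14 members reached 50%. The median member averaged 5.15 FPKM, and 9 of the 90 were below a mean of 0.5 FPKM and were not tested. The 6 members above 0 in exactly 3 libraries reached at most 12.1 FPKM in a library. Of the 23 Ighv genes that were no members, 14 were at 0 in all libraries, 3 were above 0 in 1 library, and 6 in 2 libraries, where they reached at most 1.80 FPKM. Ighv1-26 led with 110, 7.24 and 59.8 FPKM in CeD+GR 1 to 3, 139, 22.5 and 3.63 FPKM in CeD 1 to 3, and 146, 15.8 and 30.1 FPKM in control 1 to 3. It was highest in the 3 replicate 1 libraries and its groups overlapped. Ighv9-3 (114140692 to 114141122) had 144, 6.69 and 10.5 FPKM in CeD+GR, 106, 6.52 and 2.25 FPKM in CeD, and 83.9, 4.67 and 8.61 FPKM in control. Ighv3-6 (114288152 to 114288582) had 113, 1.27 and 30.8 FPKM in CeD+GR, 63.6, 25.2 and 4.68 FPKM in CeD, and 112, 5.85 and 8.30 FPKM in control. Both again had their highest values in replicate 1, and in neither did a group stand apart. The other 7 of the 10 most abundant were all of family 1, namely Ighv1-53, Ighv1-55, Ighv1-9, Ighv1-39, Ighv1-64, Ighv1-82 and Ighv1-18, with means of 21.7 to 35.0 FPKM. Ighv1-53 stood at 86.8, 1.99 and 54.7 FPKM in CeD+GR, 78.3, 2.77 and 0.691 FPKM in CeD, and 79.2, 3.50 and 6.92 FPKM in control. Outside the replicate 1 libraries it reached more than 10 FPKM only in CeD+GR 3.

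The number of segments detected was highest in the 3 replicate 1 libraries and lowest in CeD+GR 2, which also had the fewest Ighv reads. Members above 0 numbered 88, 33 and 70 in CeD+GR 1 to 3, 88, 68 and 55 in CeD 1 to 3, and 85, 60 and 63 in control 1 to 3. The Ighv reads recovered from the deposited values numbered 10889, 469 and 1803 in CeD+GR, 12432, 991 and 496 in CeD, and 12804, 1016 and 1655 in control. At an equal 469 reads, the expected number of members detected was 67.1, 33 and 54.2 in CeD+GR, 66.3, 61.3 and 54.6 in CeD, and 65.8, 54.7 and 56.1 in control. CeD+GR 2 thus had the fewest members at matched depth, and CeD 3, with 496 reads, had 55. CeD+GR 2 also stood apart in Ighm, the constant region of IgM, with 23.7 FPKM against 3.41 to 7.16 FPKM in the other libraries, and its part in the Ighv make-up was not tested. Over the 3 libraries of a group, the mean at 469 reads was 51.5 ± 17.2 in CeD+GR, 60.7 ± 5.87 in CeD and 58.8 ± 6.02 in control (SD, n = 3 each).

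**Figure D3:**
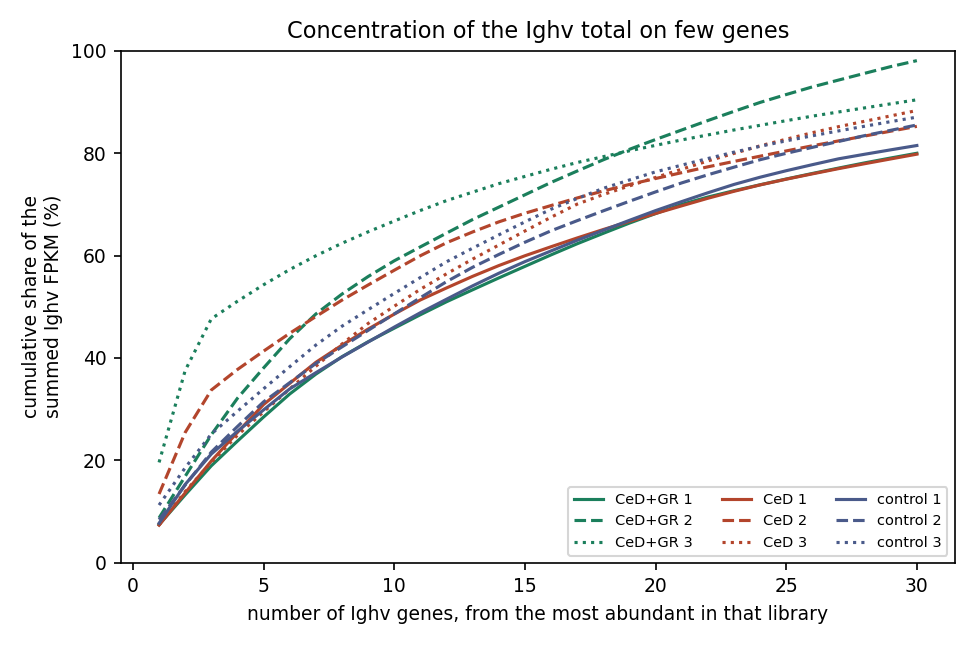
Each line is a library, and shows the share of the summed Ighv FPKM held by its most abundant members, from 1 to 30 of them. Colours are groups, and line styles are replicate numbers. The 5 most abundant members hold 54.3% in CeD+GR 3, against 28.5 to 30.9% in the 3 replicate 1 libraries.

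Concentration on few segments was summarised as the effective number of genes, the number of equally abundant genes that would give the same inverse Simpson index. It was 32.7, 21.3 and 11.2 in CeD+GR 1 to 3, against 31.0, 19.0 and 28.2 in CeD 1 to 3 and 31.0, 28.4 and 24.4 in control 1 to 3. The replicate 1 libraries lay together at 31.0 to 32.7, and CeD+GR 3 was the lowest. Group means were 21.7 ± 10.8 in CeD+GR, 26.1 ± 6.26 in CeD and 27.9 ± 3.35 in control, with overlapping ranges. In CeD+GR 3 the leader Ighv1-26 held 19.6% of the Ighv FPKM and Ighv1-53 another 18.0%. As shares of its 1803 Ighv reads, the 95% Wilson intervals were 17.3 to 20.9% for Ighv1-26 and 15.7 to 19.2% for Ighv1-53; such intervals cover counting error only. Ighv1-53 held 4.49% or less in the other 8 libraries, where Ighv1-26 held 4.43 to 12.0%.

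**Figure D4:**
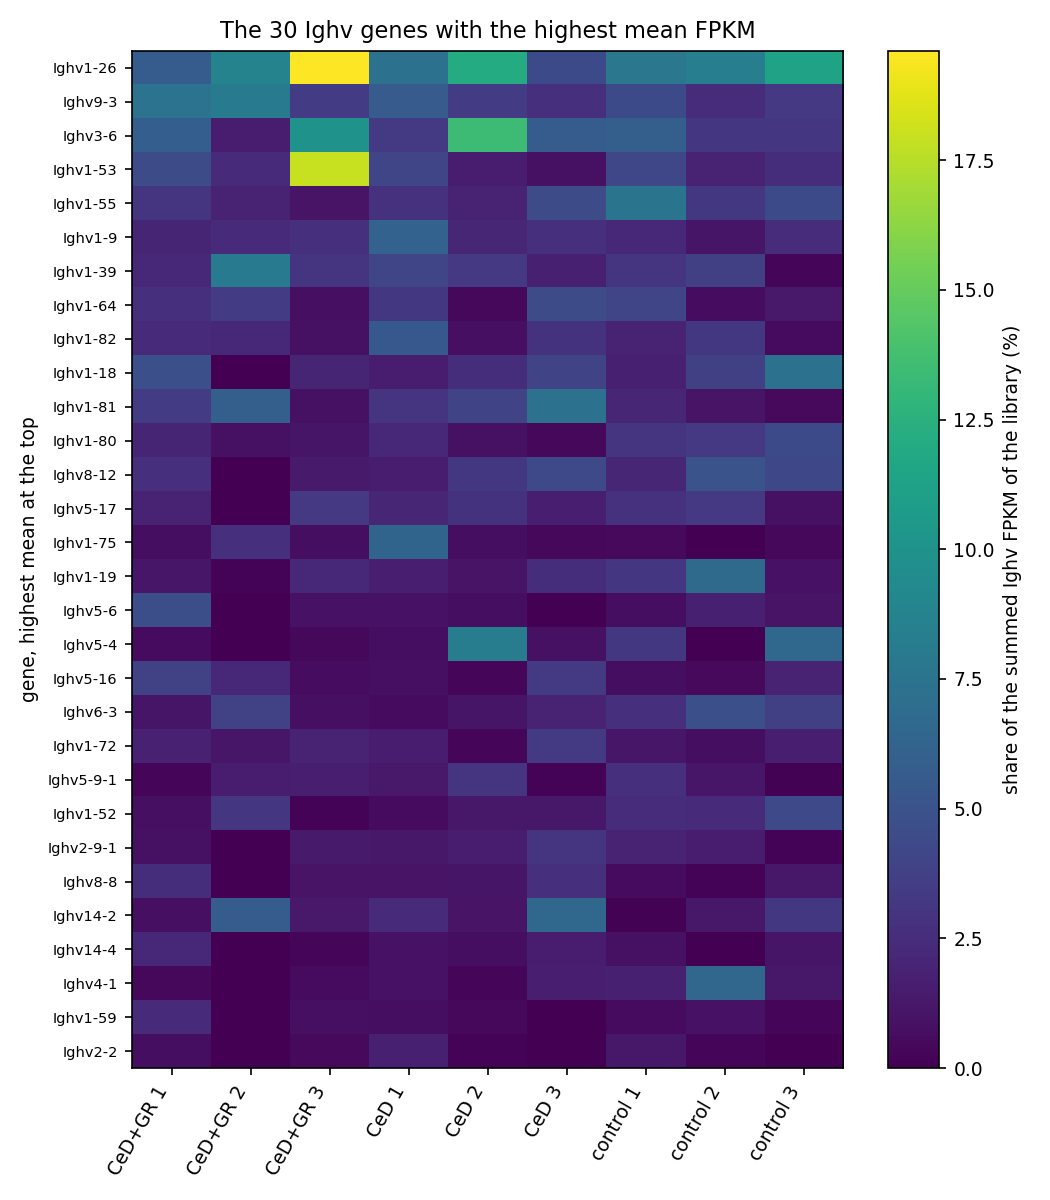
Rows are the 30 members with the highest mean FPKM, columns are libraries, and colour is the share of that library's summed Ighv FPKM in percent. Ighv1-26 and Ighv1-53 are bright in CeD+GR 3 (19.6% and 18.0%), and Ighv3-6 in CeD 2 (13.4%).

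The map of shares shows segments whose share of the Ighv total was largest in a single library. The most abundant member was Ighv1-26 in 6 of the 9 libraries. It was Ighv9-3 in CeD+GR 1 (7.45%), Ighv3-6 in CeD 2 (13.4%), and Ighv1-81 in CeD 3 (7.39%). Several members chosen after their values were seen held a share in 1 library well above that in any other. Ighv6-6 held 7.12% in CeD+GR 2, from 33 reads, and 1.04% or less elsewhere. Ighv1-11 (114612243 to 114612675) held 4.83% in CeD+GR 2, from 22 reads, and 0.628% or less elsewhere, and it was at 0 in all 3 control libraries. Ighv1-75 held 6.32% in CeD 1, from 797 reads, and at most 2.68% elsewhere. Ighv4-1 (113948282 to 113948796), the sole member of its family, held 6.44% in control 2, from 73 reads, and at most 1.72% elsewhere. Such peaks lay in libraries of all 3 groups. They are peaks of share, and the totals differ between libraries. In FPKM, Ighv6-6 stood at 5.87 in CeD+GR 2 against 15.0 in CeD+GR 1, and Ighv1-11 at 3.98 against 12.1. Ighv4-1 stood at 12.0 FPKM in control 2 against 32.5 FPKM in control 1. Ighv1-75 was highest in CeD 1 in FPKM as well, at 120 FPKM. Ighv5-9 (113661769 to 113662293), Ighv1-63 and Ighv1-47 were each at 0 in 5 libraries, and Ighv5-9 reached 33.4 FPKM in CeD 1, 12.0 FPKM in control 1 and 8.19 FPKM in CeD+GR 1.

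The order of the members was as alike between groups as within them. Spearman correlations of member levels between libraries, over the 90 members, were 0.39 to 0.73 within a group (median 0.58, 9 pairs) and 0.37 to 0.78 between groups (median 0.60, 27 pairs). The 3 replicate 1 libraries correlated at 0.72 to 0.78 with each other. CeD+GR 2 correlated with the other 8 at 0.37 to 0.54. The Ighv reads behind these libraries ranged from 469 to 12804, and members are not independent replicates.

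Family 1 held the largest share of the RNA in each library, and the most members. Its 45 members, 50% of all, took 53.8, 62.0 and 65.3% of the Ighv sum in CeD+GR 1 to 3, against 64.2, 46.4 and 57.7% in CeD 1 to 3 and 58.0, 53.4 and 56.6% in control 1 to 3. The group means were 60.4 ± 5.96% in CeD+GR, 56.1 ± 8.97% in CeD and 56.0 ± 2.37% in control (SD, n = 3 each). The ranges overlapped, and no group stood apart. Family 5, with 9 members, took 12.6, 5.47 and 7.52% in CeD+GR, 8.82, 16.9 and 7.27% in CeD, and 11.0, 7.97 and 11.2% in control. CeD 2 was the highest for family 5, and the groups overlapped.

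**Figure D5:**
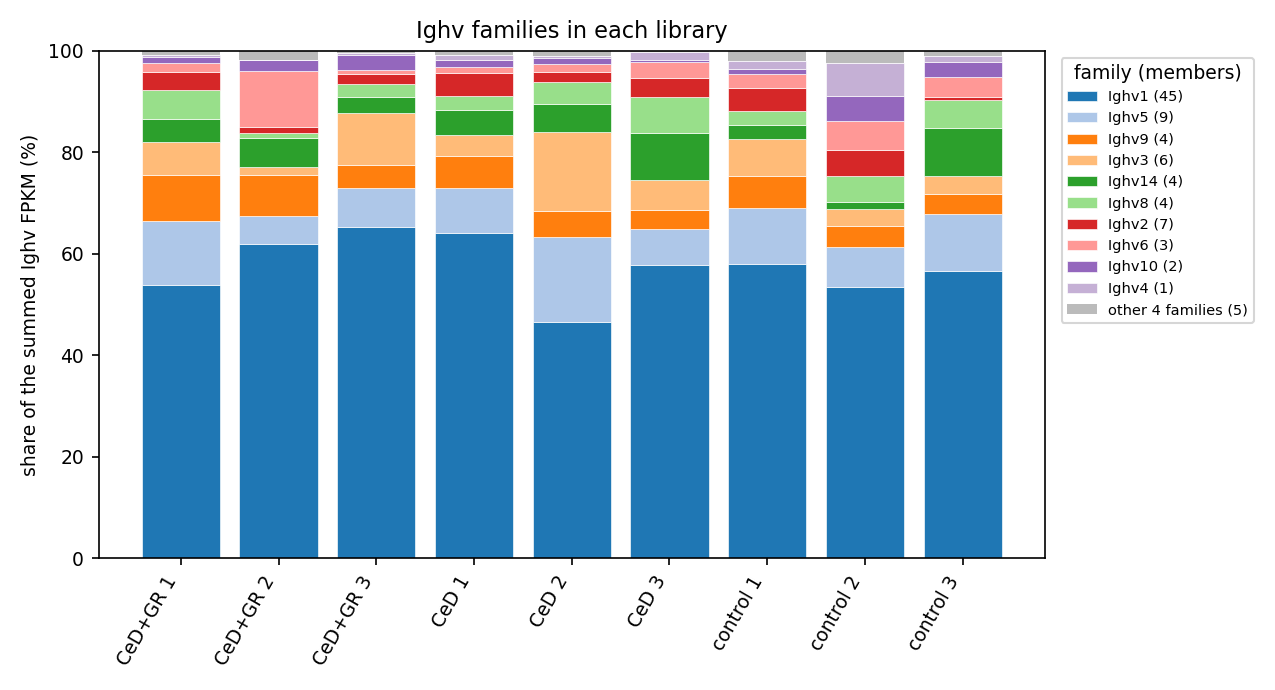
Stacked bars give the share of the summed Ighv FPKM held by each Ighv family in each library, in percent, with the number of members of the family in the legend. Family 1 fills 46.4 to 65.3% of every bar, and family 6 is widest in CeD+GR 2 at 11.0%.

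Smaller families rested on 1 or a few segments, and their shares moved between single libraries. By mean level over the 9 libraries, Ighv3-6 made up 86.5% of the 6 members of family 3. Ighv9-3 made up 79.7% of the 4 of family 9, and Ighv6-3 73.1% of the 3 of family 6. Family 3 was highest in CeD 2 (15.5%), family 6 in CeD+GR 2 (11.0%, against 5.74% or less elsewhere) and family 4 in control 2 (6.44%). The larger part of family 6 in CeD+GR 2 was Ighv6-6 (7.12%), with Ighv6-3 at 3.89%. Family 14 stood at 9.32% in CeD 3 and 9.47% in control 3, and at 5.70% or less in the other 7 libraries. Families 11, 13 and 15 had 1 member each and took at most 0.409% in any library. Families 12 and 16 had no member.

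Position along the locus bore little relation to the level. The 30 members nearest the diversity, joining and constant genes (113578504 to 114254051) took 17.2 to 32.1% of the Ighv sum per library, with a median of 26.8%. The 30 in the middle (114262652 to 114937544) took 31.3 to 48.1%, with a median of 39.4%, and the 30 farthest (114991108 to 116000461) took 24.3 to 42.0%, with a median of 36.7%. Over the 90 members the Spearman correlation of start position with mean level was 0.12, and 0.00 to 0.25 in single libraries. Neighbouring members share families and sequence, so these points are not independent.

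Similarity to other segments could affect the levels of single members. The nearest other Ighv gene was 95.2% identical in the median, and for 62 of 90 members no stretch of 100 bases recurred in another Ighv gene. Among the 10 most abundant, 92.1 to 100% of such stretches were their own. Ighv1-62-2 was identical to Ighv1-71 over the bases compared, and 9.68% of its stretches were its own, so its level of 1.28 FPKM is uncertain. Over the 90 members the Spearman correlation between that percentage and the mean level was 0.07. The 70 annotated Ighv pseudogenes summed to 1.08 FPKM or less in every library.

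The comparison of CeD+GR with CeD asks what the nanoparticles changed in the challenged model. No Ighv gene passed the test. In limma, 0 of 81 members passed at an adjusted p of 0.05, against a background of 0.0% of the 14683 genes tested, and the smallest adjusted p was 1. At an unadjusted p under 0.05 there was 1 member, against 2.89% of all genes. The median log2 fold change was -0.11 over the 81 members, 37 positive and 44 negative, and 0.01 over all genes. The median standard error of a member was 1.42, against 0.35 over all genes. No member had all 3 CeD+GR libraries above all CeD libraries (0 of 81, against 3.01% of all genes), and 1 of 81 (1.23%) had all of them below, against 3.04% of all genes.

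That member was Ighv1-31 (ENSMUSG00000096649, 114829264 to 114829697), a segment of family 1. It had 0.920, 0 and 0.174 FPKM in CeD+GR 1 to 3, against 16.5, 1.19 and 4.32 FPKM in CeD 1 to 3 and 1.10, 1.95 and 4.22 FPKM in control 1 to 3. These values rest on 5, 0 and 1 reads in CeD+GR, 103, 6 and 25 reads in CeD, and 7, 10 and 25 reads in control. The CeD+GR libraries all lay below the CeD and the control libraries, and unlike most members it was not high in CeD+GR 1 or control 1. Its log2 fold change in CeD+GR against CeD was -2.72 (SE 0.80), with an unadjusted p of 0.0082 and an adjusted p of 1 in limma. Against control it was -1.76 (SE 0.80), with an unadjusted p of 0.057 and an adjusted p of 1. Both values share the CeD+GR libraries, and a count of 1 in 81 is below the share of all genes.

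The comparison of CeD with control asks how the model under enhanced gluten stimulation differs from wild type. Of 81 members, 0 passed in limma, against 0.0% of all genes, and no adjusted p was below 1. Members with an unadjusted p under 0.05 numbered 0, against 0.701% of all genes. The median log2 fold change was -0.29, with 31 members positive and 50 negative, against 0.00 over all genes. No member had all CeD libraries above control (0 of 81, against 2.2% of all genes) or all below it (0 of 81, against 2.49%). With the replicate number as a block, in a fit over all 9 libraries, 0 members passed and the smallest adjusted p of a member in limma was 0.24. In that fit 10 members (12.3%), 1 higher and 9 lower in CeD, had an unadjusted p under 0.05, against 1.31% of all genes. The constant and J chain genes of the fixed list gave no call, with 3 positive and 7 negative of 10 tested.

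The comparison of CeD+GR with control shares its libraries with the other comparisons. Of 81 members, 0 passed in limma, against 0.0% of all genes, with a smallest adjusted p of 1, and 1 had an unadjusted p under 0.05, against 2.72% of all genes. The median log2 fold change was -0.17, with 32 members positive and 49 negative, against -0.00 over all genes. No member lay above control in all CeD+GR libraries (0 of 81, against 2.54% of all genes), and Ighv1-31 alone lay below it (1 of 81, 1.23%, against 3.04%).

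Leaving out the replicate 1 libraries narrowed the spread and gave no call. With replicates 2 and 3 only, the median standard error of a member was 0.78 and 0 members passed in each comparison. At an unadjusted p under 0.05 there were 4 members in CeD+GR against CeD, 10 in CeD against control (1 higher, 9 lower) and 11 in CeD+GR against control (1 higher, 10 lower). These were 4.94% of the members for CeD+GR against CeD, where all genes gave 5.51%, 12.3% for CeD against control, where all genes gave 2.07%, and 13.6% for CeD+GR against control, where all genes gave 6.44%. Members vary together within a library, so such counts are not independent, and the low replicates 2 and 3 libraries hold few reads. The smallest adjusted p of a member by limma was 0.80 for CeD+GR against CeD, 1 for CeD against control and 0.77 for CeD+GR against control. Limma-voom on the recovered reads of all 9 libraries also called 0 members, with 1 member for CeD+GR against CeD, 0 for CeD against control and 0 for CeD+GR against control at an unadjusted p under 0.05. The shares over all genes were 2.60%, 0.436% and 2.28% in these comparisons.

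Genes of the cells that make antibody gave no call either. Of the 12 plasma cell genes, all tested, 7 were positive and 5 negative in CeD+GR against CeD (median 0.09), 2 and 10 in CeD against control (median -0.36), and 3 and 9 in CeD+GR against control (median -0.20), and 0 passed in any. Pigr, which carries IgA across the epithelium, stood at 1422, 1217 and 775 FPKM in CeD+GR 1 to 3, against 1436, 1497 and 1762 FPKM in CeD and 1643, 2135 and 2331 FPKM in control. Of the 7 germinal centre and class switch genes, 3 were tested and 0 passed.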

How the data were processed

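The authors' deposited table gave FPKM per gene for 9 mouse duodenum libraries, with gene lengths. Per the submitters' processing notes, DESeq2 1.20.0, featureCounts 1.5.0-p3, HISAT2 2.0.5, fastp and the build mm10 were used, in roles not described. How reads with several matches were treated, the strand setting, the annotation release and the FPKM formula were each not given in the sources used here; levels of near-identical or overlapping genes are therefore uncertain.

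FPKM times gene length gave whole reads within 0.1 for 100% of values, so Ighv reads were recovered for shares, with Wilson intervals, and for detection at 469 reads. The library size that the values imply was 17831210 against 15373260 assigned reads in CeD 1, and 14641212 against 16372119 in control 2. Median-of-ratios factors computed from the FPKM were 1.00805 in every library, so the values already carried a scaling of that kind. Groups follow the treatment labels. Genes whose mean reached 0.5 FPKM (14683, of which 81 members) were compared on log2(FPKM + 0.5), which understates changes of low genes, with limma 3.58.1 in R 4.3.3 in 1 model over 9 libraries with a mean-variance trend and two-sided Benjamini-Hochberg adjustment at 0.05. With 3 libraries against 3 an exact permutation p cannot go below 0.1. The fit was tested on simulated data.

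Named members are the 10 with the highest mean, the leader of each library and family, up to 5 per direction with no overlap, and 4 of highest ratio of top library to median; members whose median was 0 came first there, an order set after values were seen. Members and lists were chosen with earlier results of these data known. Alternatives are given in the closing section. Sequences were read with Python 3.11.15 and Biopython 1.88. No member had a promoter in the table used, so the planned octamer search was not run. Some genes of the lists are not reported here. The labels' replicate numbers were checked as pairs on deviations from the group means, over the genes tested. Between CeD and control libraries of the same number these correlated at 0.71, 0.37 and 0.41. Replicate 1 with another number correlated at -0.62 to -0.38. However, control 2 with CeD 3 correlated at 0.46, and control 3 with CeD 2 at 0.17. The check thus sets replicate 1 apart and does not show numbers 2 and 3 to be pairs. The fit with a block, which takes the numbers as pairs, is given beside the comparison of CeD with control, and for each comparison in the closing section.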

Additional observations from a re-analysis of the deposited data

How the results depend on the processing

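Across 24 alternatives, 0 members passed in any comparison. Over all genes the count was 0 in each, except CeD+GR against control without control replicate 1, at 1 gene (range 0 to 1 with a library left out). The median-of-ratios rescaling among the alternatives divided every library by the same 1.00805, so it could hardly differ from the reported fit. The median log2 fold change of the members changed sign with the library left out: -1.09 to 0.93 for CeD+GR against CeD, -1.28 to 0.61 for CeD against control and -1.36 to 0.62 for CeD+GR against control. It was 1.51, -0.13 and 1.35 with array weights, -0.47, 0.07 and -0.20 with Ighv as shares, and 0.00, -0.40 and -0.34 with replicates 2 and 3 only, in that order of comparisons, and -0.12, -0.21 and -0.14 over all 90 members with no filter; the causes were not tested. The log2 ratio of mean sums ran from -1.90 to 2.52, -2.54 to 1.67 and -2.01 to 1.77 with 1 library left out. Without CeD 1 and CeD+GR 3 that ratio was 2.90 for CeD+GR against CeD and -2.54 for CeD against control. A replicate 1 library was then missing from 1 group, and the ratio carries no term for replicate 1. The fit on the same libraries with such a term gave member medians of -0.17, -0.25 and -0.47 in that order of comparisons. For the folds of single members, alternatives were computed for Ighv1-31, whose sign was the same in all.

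With the replicate number as a block the medians were -0.11, -0.29 and -0.17, the smallest adjusted p of a member was 0.85, 0.24 and 0.90, and 0 members passed. At an unadjusted p under 0.05 there were 6, 10 and 12 members (7.41, 12.3 and 14.8%, where all genes gave 5.48, 1.31 and 4.38%), against 1, 0 and 1 with no block. The fit with a block took the numbers as pairs in every comparison, which the check of pairs did not show for those with CeD+GR. There CeD+GR 3 correlated at -0.12 with CeD 3 and at -0.11 with control 3. A term for replicate 1, added after the data were seen, gave a smallest adjusted p of 0.88, 0.10 and 0.70. Shares of families moved by more than 1 SD in 6 of 72 cases without the most abundant member, and numbers detected in 0 of 9 with at least 3 reads. Depth limits single members: CeD+GR 2 and CeD 3 held 469 and 496 Ighv reads.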
